A study of Homo sapiens with 2 samples.

Results

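The genes described here lie along 1 stretch of the short arm of human chromosome 20, from SLC23A2 at the telomere side to VSX1 near the centromere. The list held 53 genes, of which 49 had at least 1 probe set that the platform annotation gives to that gene alone, out of 19775 such genes and 54675 probe sets on the array. The other 4 (SPTLC3, PCSK2, KAT14 and CRNKL1) had no value here. The list was drawn up from genes of this stretch, with the differences between these arrays already known. It left out 69 further measured genes between its ends, which are described below. The members' differences are therefore a description and no test was made.

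The cells were Panc1, an established line grown from a carcinoma of the human pancreatic duct. The mock population held the empty vector, and the syk population held wild-type syk, the gene of a cytoplasmic tyrosine kinase. Both are labelled stable cell populations under hygromycin selection, harvested before confluence. The labels name no promoter for the transgene. Each population was read by 1 Affymetrix array, so each value is a single measurement and population, RNA preparation and array cannot be told apart. Of 6 ductal epithelial markers, 5 were above the highest bacterial control probe set (4.77) on both arrays, and the log2 of the 6 summed was 13.8 on mock and 13.4 on syk. The exception was CDH1, E-cadherin, at 6.34 on mock and 3.47 on syk. Syk minus mock was -1.45 for KRT19, -0.76 for KRT8, -0.49 for KRT7, -0.23 for KRT18 and 0.30 for EPCAM. No leukocyte (0 of 4), endothelial (0 of 3), fibroblast (0 of 3) or acinar (0 of 1) marker was above 4.77 on both arrays. Of 4 endocrine markers only SYP was. The brightest SYK probe set itself read 4.27 on mock and 4.73 on syk, and the 3 others differed by -0.09, -0.07 and -0.27. All 4 were under 4.77 on both arrays, so each direction rests on the labels. The 3' control probe set of ACTB exceeded the 5' one by 1.95 on mock and by 2.37 on syk, and the part of this in the differences below was not tested.

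What these genes share is their place. A chromosome arm carries genes of unrelated function side by side, and neighbours share their DNA copy number and often their chromatin surroundings. This stretch holds housekeeping genes of RNA and protein synthesis next to genes used in few tissues, such as the islet and neural factors INSM1 and NKX2-2. It also holds JAG1, which encodes a membrane ligand of Notch receptors and is mutated in Alagille syndrome. DNA copy number was not analysed here.

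Most members that gave signal read higher on the syk array, by modest amounts. Values are log2 intensities, and a difference is syk minus mock for the brightest probe set of a gene. Of the 49 measured members, 36 were above 0, 12 below and 1 at 0, with a median of 0.25. A brightness filter, a mean of both arrays at or above the median of all probe sets (4.25), left 37 members and 12814 genes. Of these 37, 29 were above 0 and 8 below, where 50.8% of all genes past the filter were above 0 and 47.8% below. The median was 0.43 (quartiles 0.07 and 0.63), and that of all genes past the filter was 0.01. At 2-fold the picture was different. Only TRMT6 and JAG1 were at least 2-fold higher, with a background of 3.61%, and 0 of the 37 were lower by that much, with a background of 3.65% (7.26% for both directions together). At a log2 difference of 0.5, a level chosen after the values were seen, 15 members were higher (background 15.4%) and SNAP25 alone was lower (background 13.2%). Probe sets of the same gene scattered with a pooled SD of 0.35 in their differences (6028 genes), so a single member at 0.4 lies near that scatter. Since the list was made with these differences known, nothing is read from its counts against the background.

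**Figure D1:**
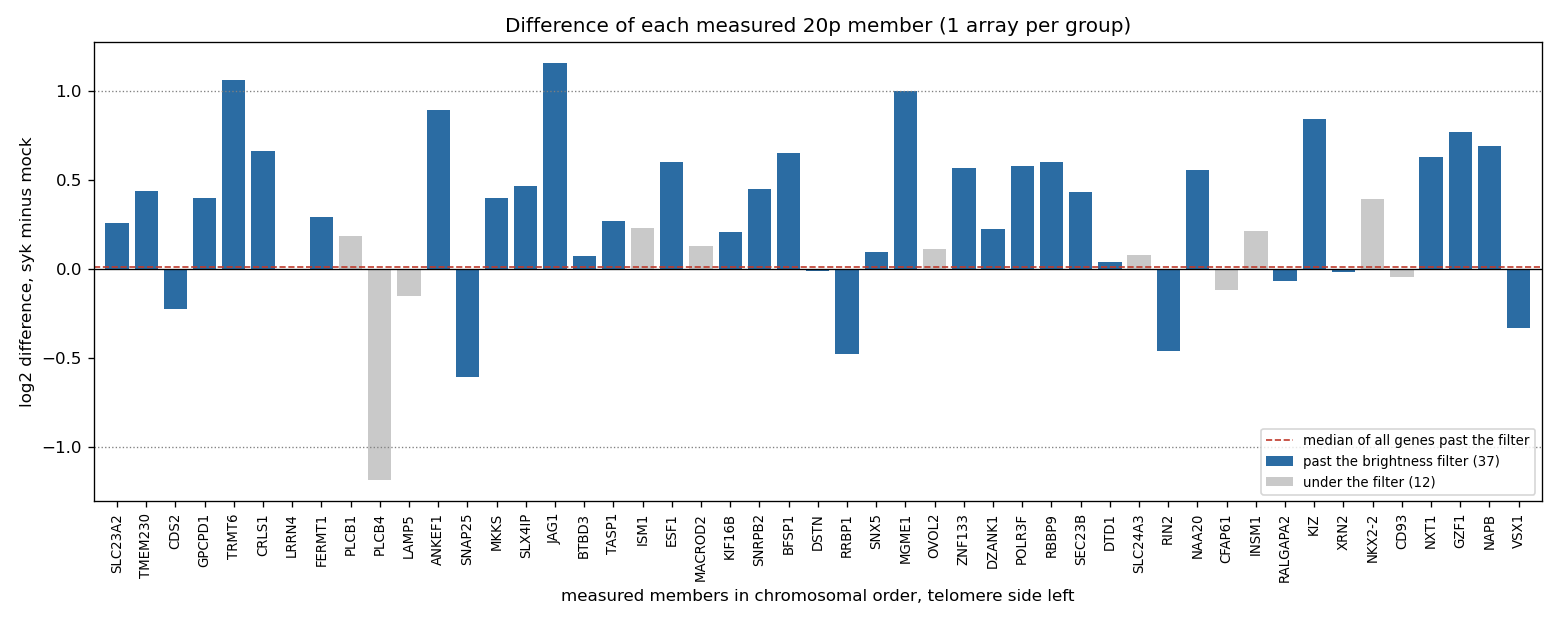
Log2 difference (syk minus mock, y axis) of the 49 measured members in chromosomal order (x axis), with 37 past the brightness filter in blue and 12 under it in grey; the dashed line is the median of all genes past the filter (0.01) and dotted lines mark 2-fold. Of the 37 blue bars 29 point up, and TRMT6 and JAG1 pass the upper line.

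Brightness moved with these counts and is given beside them. Among the 29 members at or above the 75th percentile of probe sets (6.59), 23 were above 0, with a median of 0.45. Of all 8031 genes that bright, 52.9% were above 0 and the median was 0.04. In that range 13 members reached 0.5, against 16.3% of all genes. Between the filter and the 75th percentile, 6 of 8 members were above 0 with a median of 0.24, where the median of all genes was 0. The 12 members under the filter all lay at or below 4.77 on both arrays and had a median of 0.10, against 0.04 for all genes under it. Of the 19 members with several probe sets past the filter, 17 had probe sets of 1 sign, 14 above 0 and 3 below, where this held for 60.9% of all 6028 such genes. Those probe sets share their RNA, so this bears on probes and not on populations. The members were also listed with their differences known, so nothing is read from this contrast.

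Among members past the filter, the largest differences belonged to JAG1, TRMT6 and MGME1. JAG1 read 8.53 on mock and 9.68 on syk, a difference of 1.15 (2.23-fold). That probe set is of the _x_at kind, which may bind related transcripts, and 3 further JAG1 probe sets past the filter differed by 1.24, 1.23 and 0.86. The last 2 of its 6 probe sets lay below 4.25 on both arrays and differed by 0.04 and -0.06. TRMT6, the non-catalytic subunit of the enzyme that methylates adenosine in tRNA, read 8.48 on mock and 9.54 on syk, a difference of 1.06, and its other probe set differed by 1.08. MGME1, an exonuclease that maintains mitochondrial DNA, read 9.24 and 10.2, and its difference of 0.999, from its only probe set, put it just under 2-fold (1.02 after median centring of the arrays). ANKEF1, an ankyrin repeat protein, came next at 0.89, from a mock value of 4.40 that is below the bacterial control level, and with that level as a floor its difference was 0.52. Its dimmer probe set differed by -0.35. KIZ, a centrosome protein, followed at 0.84, with 1.04 in the second of its probe sets past the filter.

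The starts of several members face a neighbour across a short gap, so that the same bases lie upstream of both genes. The sequences of 3 such gaps and the bases before the JAG1 start are shown. JAG1, TRMT6 and MGME1 hold the largest differences among members past the filter. The ESF1 gap is shown so that a further facing pair can be set side by side. All are RefSeq sequences of GRCh38.p14, on the strand of the second gene named, 5' to 3'. Capitals mark the GC box, spelled GGGCGG, on either strand. They also mark the CCAAT box and the ETS core, spelled CCGGAAG, and overlapping matches run together.
TRMT6 to MCM8, chr20:5950534-5950651, plus strand: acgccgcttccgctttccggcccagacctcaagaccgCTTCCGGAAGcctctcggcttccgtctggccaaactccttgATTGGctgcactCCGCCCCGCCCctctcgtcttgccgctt
ESF1 to NDUFAF5, chr20:13784920-13785027, plus strand: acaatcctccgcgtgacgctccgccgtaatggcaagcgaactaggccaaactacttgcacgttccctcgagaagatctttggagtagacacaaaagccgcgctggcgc
SNX5 to MGME1, chr20:17968795-17969017, plus strand: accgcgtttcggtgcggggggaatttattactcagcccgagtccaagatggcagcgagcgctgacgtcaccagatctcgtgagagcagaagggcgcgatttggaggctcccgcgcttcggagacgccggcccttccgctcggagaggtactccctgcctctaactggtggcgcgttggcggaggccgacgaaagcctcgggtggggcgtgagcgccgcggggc
Before JAG1, chr20:10674000-10674249, minus strand: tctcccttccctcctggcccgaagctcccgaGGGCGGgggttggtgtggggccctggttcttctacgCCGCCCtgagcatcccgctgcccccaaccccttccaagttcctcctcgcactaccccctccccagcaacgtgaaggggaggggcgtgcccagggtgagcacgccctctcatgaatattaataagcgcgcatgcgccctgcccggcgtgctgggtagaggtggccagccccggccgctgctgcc

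Facing genes did not always differ alike. TRMT6 and MCM8, a helicase of DNA repair, are 118 bases apart and differed by 1.06 and 0.59. ESF1, a nucleolar factor of rRNA processing, and NDUFAF5, an assembly factor of respiratory complex I, are 108 bases apart and differed by 0.60 and 0.60, although the dimmer ESF1 probe set past the filter differed by 0.04. SNX5 and MGME1 are 223 bases apart and parted, at 0.10 and 0.999. DZANK1 and POLR3F, 359 bases apart, differed by 0.22 and 0.58. These were the 4 measured pairs found to face each other within 1000 bases and include a member. The search covered the 37 members with a promoter entry and used 1 start per gene, so other pairs may be missing. The TRMT6 gap holds 2 GC boxes, 1 CCAAT box and 2 overlapping ETS cores, the JAG1 window 2 GC boxes, and the printed ESF1 and SNX5 gaps hold 0 of these motifs. The DZANK1 gap was not searched.

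Promoters of the members were also searched as a set. In the 250 bases before the start, a GC box stood in 63.3% of the 30 members past the filter that had a RefSeq promoter entry, against 66.3% of 10377 genes past the filter and 42.3% of all 27305 promoters. For the CCAAT box the shares were 33.3%, 34.7% and 33.0%, and for the ETS core 16.7%, 15.6% and 8.82%. An E box, CACGTG, stood in 10%, 8.79% and 6.49%. The letters TATAAA of a TATA box were in 0 of the 30, and in 5.56% and 11.1% of the other promoter sets. The median number of CG dinucleotides was 19 in the members, 21 in genes past the filter and 11 in all promoters. Both strands were searched, and a match is a description of letters only.

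RNA and protein synthesis was the largest role among members past the filter, with 9 of 10 listed genes measured and all 9 past the filter. Of these 7 were above 0, 5 reached 0.5, and the median was 0.55. NXT1, a cofactor of mRNA export, read 9.15 on mock and 9.78 on syk (0.63). NAA20, the catalytic subunit of the NatB N-terminal acetyltransferase, read 10.3 and 10.9 (0.55). POLR3F, a subunit of RNA polymerase III, differed by 0.58 and SNRPB2, a protein of the U2 snRNP, by 0.45. DTD1, which removes D-amino acids from tRNA, differed by only 0.04 and the nuclear exonuclease XRN2 by -0.02. RRBP1, a ribosome-binding protein of the endoplasmic reticulum, went the other way, from 8.38 on mock to 7.90 on syk (-0.48). Its 4 other probe sets past the filter lay between -0.20 and 0.02.

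Chromatin, transcription and genome upkeep was the role in which each measured member read higher, 9 of 9, with 7 past the filter and a median of 0.57 over those. Of all measured genes 51.6% were above 0. Members and roles were chosen with earlier results known, so nothing is read from this count or from those of the other roles. MGME1 led it. GZF1, a zinc-finger repressor, read 7.78 on mock and 8.55 on syk (0.77), while its dimmer probe set differed by -0.17. RBBP9, a serine hydrolase that binds the retinoblastoma protein, differed by 0.60, the zinc-finger gene ZNF133 by 0.57, and SLX4IP, a partner of the SLX4 nuclease scaffold, by 0.47. TASP1, the protease that cleaves MLL proteins, differed by 0.27 and BTBD3 by 0.07. The other two were dim, MACROD2 at 3.48 and 3.61 and the epithelial transcription factor OVOL2 at 3.39 and 3.50. A dimmer MACROD2 probe set read 2.70 and 3.81, also under the bacterial control level.

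Transport and traffic genes were mixed in size. Past the filter were 7 of 8, of which 6 were above 0, with a median of 0.25. NAPB, the beta-SNAP of SNARE recycling, read 5.72 on mock and 6.41 on syk (0.69), although its dimmer probe set differed by -0.17. TMEM230, a vesicle membrane protein, differed by 0.44 (11.4 and 11.9), and its second probe set by 0.48. SEC23B, a subunit of the COPII coat, differed by 0.43, with 0.07 and 0.61 in its other probe sets. The ascorbate transporter SLC23A2 differed by 0.25 and the endosomal kinesin KIF16B by 0.21, with 0.74 and 0.81 in their next probe sets. The sorting nexin SNX5 differed by 0.10, and its 3 other probe sets past the filter by 0.22 to 0.55. SNAP25, the plasma membrane SNARE of exocytosis, was the lowest member past the filter at -0.61, but its values of 4.90 and 4.29 straddle the bacterial control level, and with that floor the difference was -0.13. With the median over its probe sets it was 0.12. The sodium, calcium and potassium exchanger SLC24A3 was dim (3.07 and 3.15).

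In the lipid group 3 of 6 listed genes passed the filter. CRLS1, which makes cardiolipin in mitochondria, read 8.86 on mock and 9.51 on syk (0.66), and the next of its probe sets gave the same 0.66, while the third brightest gave 0.04. GPCPD1, a glycerophosphocholine phosphodiesterase, differed by 0.40, with 0.00 and 0.42 in its other probe sets. CDS2, a CDP-diacylglycerol synthase, read lower by its brightest probe set (-0.23), and its probe sets past the filter ran from -0.83 to 0.14, so that they disagree on the sign. The phospholipases PLCB1 and PLCB4 were dim. PLCB4 differed by -1.19 (4.01 on mock and 2.82 on syk), with both values under the bacterial control level, so no fold is given.

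Adhesion, cytoskeleton and signalling genes all passed the filter, and 4 of 7 were above 0, with a median of 0.29. Besides JAG1 and KIZ these were MKKS, a chaperonin-like protein of the primary cilium (0.40, and 0.59 in its other probe set), and FERMT1, kindlin-1, an integrin activator of epithelia (0.29, with a mock value of 4.58 below the bacterial control level). The RAB5 exchange factor RIN2 read 8.54 on mock and 8.08 on syk (-0.46). The actin-depolymerising DSTN, at 12.8 and 12.7, and RALGAPA2, the catalytic subunit of a RAL GTPase-activating complex, differed by -0.01 and -0.07.

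**Figure D2:**
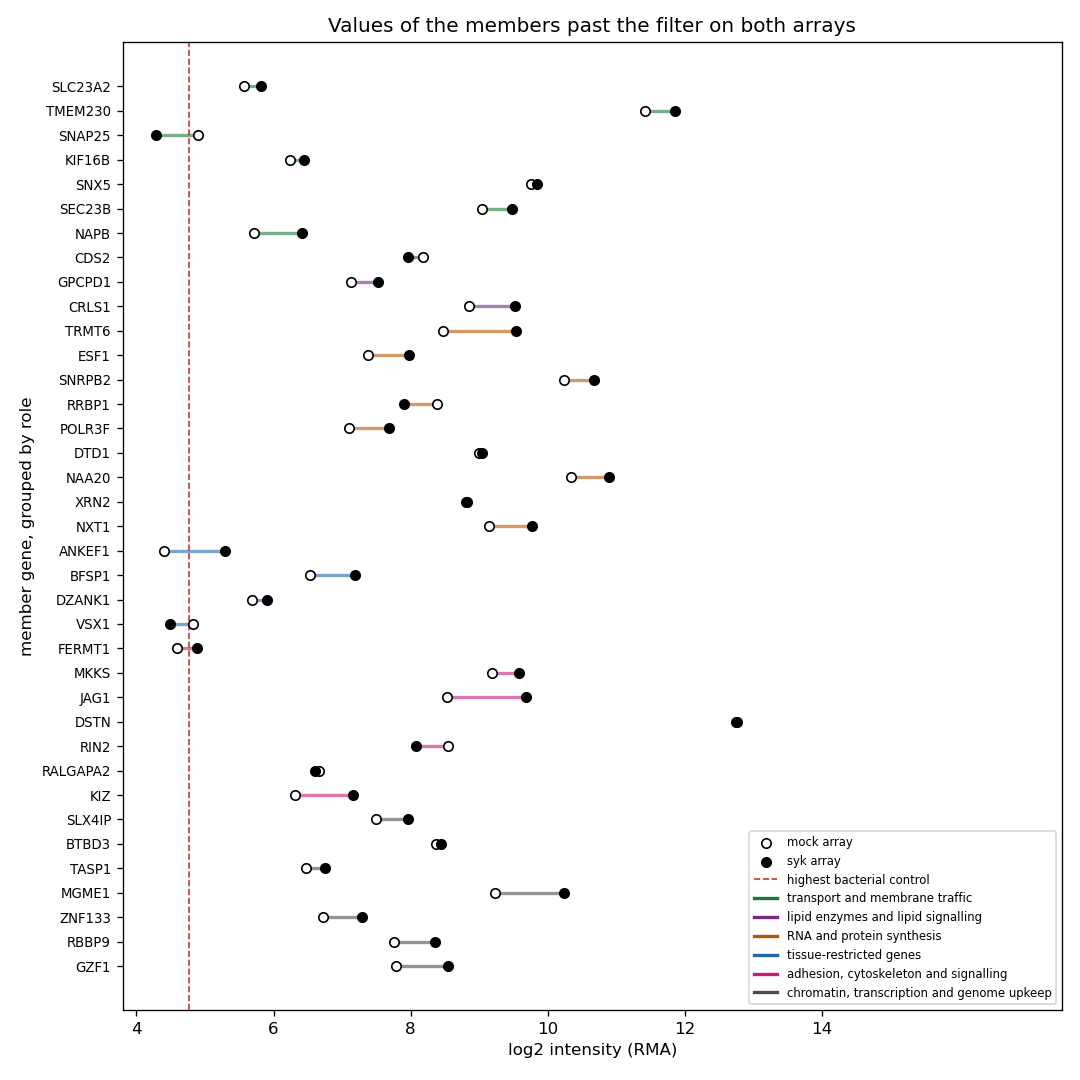
Log2 intensity (x axis) of the 37 members past the filter (y axis, grouped and coloured by role) on the mock array (open circles) and the syk array (filled circles); the dashed line is the highest bacterial control (4.77). In 29 genes the filled circle lies to the right, and 33 genes are above the control level on both arrays.

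Tissue-restricted members were mostly dim. Of 11 measured, 4 passed the filter. The lens filament gene BFSP1 read 6.53 on mock and 7.18 on syk (0.65) and DZANK1 differed by 0.22. The retinal homeobox gene VSX1, the last member on the centromere side, differed by -0.33 from 4.82 on mock to 4.49 on syk, which was -0.06 with the floor. The islet and neural factors INSM1 (2.80 and 3.01) and NKX2-2 (2.88 and 3.27), the endothelial and myeloid receptor CD93 (3.91 and 3.86), LAMP5, CFAP61, ISM1 and LRRN4 lay below the filter. LRRN4 had the same value on both arrays.

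The stretch also holds 69 measured genes that are not on the list. Past the filter were 20 of them, of which 16 were above 0, with a median of 0.44 and 9 at or above 0.5. Over all 69, dim genes included, 39 were above 0 and the median was 0.079. Together the members and these genes made 57 genes past the filter, 45 above 0. Over all 118 measured genes of the stretch, 75 were above 0 and the median was 0.14. FLRT3, an adhesion protein whose gene lies inside MACROD2, was at least 14.6-fold higher, from 3.87 on mock to 8.64 on syk, and its second probe set differed by 4.24. Its host MACROD2, an ADP-ribose hydrolase, was below 4.77 on both arrays. CHGB, a granin of secretory granules, was the other gene past 2-fold, with a measured 1.19 from a mock value of 4.48, which was at least 1.87-fold with the floor. FOXA2, a transcription factor of foregut endoderm, read 8.02 and 8.55 (0.53), with 0.80 in its second probe set. The long non-coding RNA LINC00261 beside it differed by 0.77. PCNA, the sliding clamp of replication, differed by 0.24. The genes below 0 were TMX4 (-0.26), LINC00851 (-0.12) and CST3, the secreted protease inhibitor cystatin C (-0.69).

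Outside the stretch the differences were smaller on the telomere side. The 50 genes past the filter from the telomere to SLC23A2 had a median of 0.13, with 34 above 0, and 2 of them passed 2-fold, RBCK1 (1.09) and SRXN1 (1.13). The nearest measured neighbour past the filter, PRNP, which encodes the prion protein, differed by -0.16, where SLC23A2 just inside differed by 0.25. On the centromere side, 7 genes past the filter had a median of 0.34 with 5 above 0, and ran from -0.62 (NINL) to 0.87 (NANP). That median depended on the processing, from 0.07 to 0.59 over the alternatives given below. ENTPD6, next to VSX1 (-0.33) on its outer side, differed by 0.34. On the long arm 272 genes past the filter had a median of 0.05, with 145 above 0. At or above the 75th percentile of brightness the medians were 0.15 on the long arm, 0.16 on the telomere side, 0.34 on the centromere side and 0.45 in the members. Since the list that bounds the stretch was made with these differences known, nothing is read from these contrasts.

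A running median of 9 neighbouring genes was above 0 at each of its 57 positions in the stretch, between 0.04 (centred on RIN2) and 0.63 (centred on LINC00261). It was at or above 0.4 at 31 of those 57 positions. Outside the stretch this held at 4 of 46 on the telomere side and 0 of 7 on the centromere side. On the long arm it held at 6 of 268. The running median was above 0 at 39 of those 46, 7 of those 7 and 159 of those 268. Neighbouring positions share genes and are not independent, and windows near the ends of the stretch include genes outside it. The stretch was bounded by a list made with these differences known, and 0.4 was chosen after the values were seen. Nothing is therefore read from the stretch exceeding its surroundings. The level itself was not peculiar to the stretch, since the running median reached 0.64 on the long arm around TFAP2C.

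**Figure D3:**
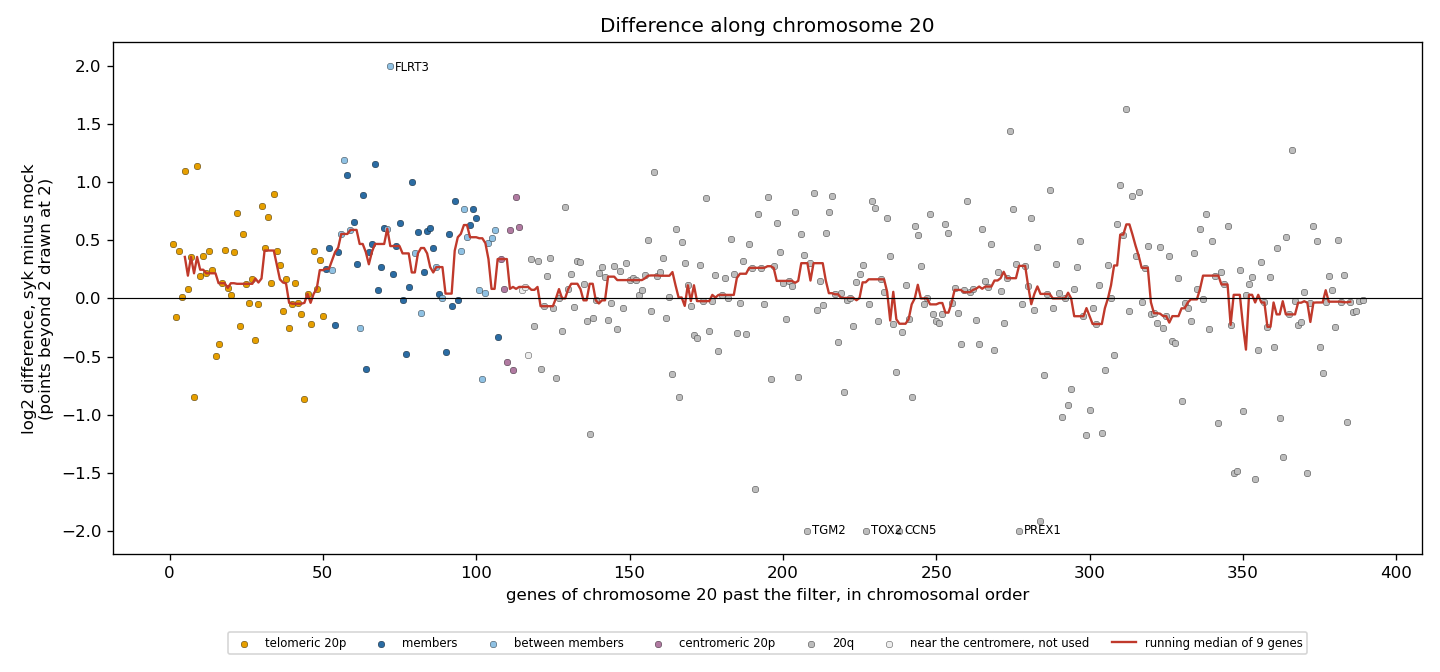
Log2 difference (syk minus mock, y axis, points beyond 2 drawn at 2) of the genes of chromosome 20 past the filter in chromosomal order (x axis), coloured by stretch, with the running median of 9 genes in red. The line stays above 0 throughout the stretch, between 0.04 and 0.63, and reaches 0.64 around TFAP2C on the long arm.

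Genes on other chromosomes were set beside the members as partners. They share a complex or step with a member, or are its paralog or substrate. Some belong to members without a value. Of a list of 50 partners, 47 of those on other chromosomes passed the filter, with 26 above 0 and a median of 0.06. For 20 members with a partner past the filter, the median difference was 0.35, and that of their partners' medians 0.08, with the member above its partners in 15 of 20. Since the members were listed with their differences known, nothing is read from this contrast. TRMT6 differed by 1.06 and its catalytic partner TRMT61A by 0.33. MGME1 stood at 0.999 beside the mitochondrial polymerase POLG at -0.22. SEC23B was higher by 0.43 while its paralog SEC23A read 9.24 on mock and 8.37 on syk (-0.87). Its other listed partners SEC24A, SEC13 and SEC31A differed by -0.04, 0.15 and 0.33. NAPB (0.69) was set beside NAPA (-0.28) and NAPG (-0.60), which carry out the same step, and NSF (0.67), the ATPase they recruit. Other pairs were close. NAA20 and its auxiliary subunit NAA25 differed by 0.55 and 0.53, and SLX4IP (0.47) was below SLX4 (0.75, or 0.35 with the mean over probe sets). SNRPB2 and SNRPA1 differed by 0.45 and 0.45, but SNRPA1 was at -0.27 with plain _at probe sets. The other partner listed for SNRPB2, SF3B1, was not close, at -0.37. CDS2 (-0.23) and CDS1 (-0.98) were both lower but 0.75 apart. The syk value of CDS1, 4.71, was below the bacterial control level. RRBP1 (-0.48) stood beside KTN1 (-0.72), which was at 0.05 with plain _at probe sets.

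**Figure D4:**
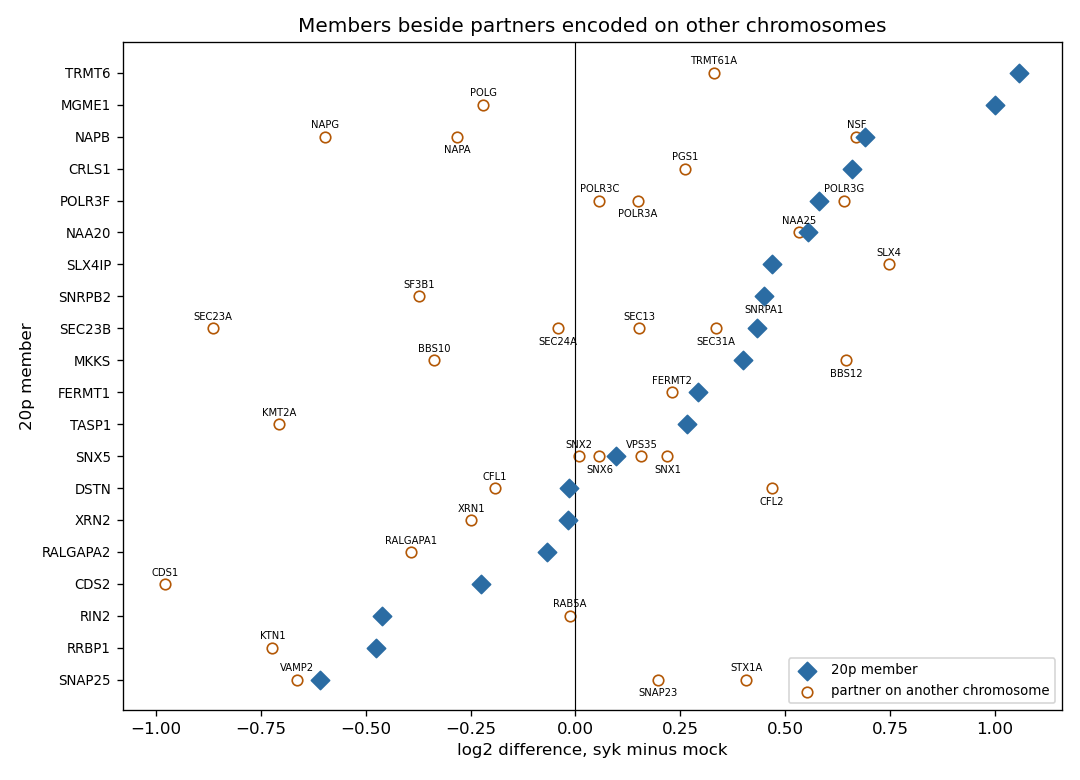
Log2 difference (syk minus mock, x axis) of 20 members (blue diamonds, y axis) and of their partners on other chromosomes (open circles, named). In 15 of 20 the member lies to the right of its partners' median, most widely for MGME1 (0.999) beside POLG (-0.22). The members were listed with their differences known.

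JAG1 acts by binding Notch receptors on the next cell, which are then cut by ADAM proteases and gamma-secretase to free a fragment that switches on HES and HEY genes. Of 37 Notch pathway genes past the filter, 17 were above 0 and 20 below, with a median of -0.09. HEY2 alone passed 2-fold, upwards. Its plain _at probe set gave 0.92. No other ligand passed 2-fold. JAG2 read 6.85 on mock and 6.47 on syk (-0.38) and DLL3 differed by 0.48 in its brightest probe set but by -0.03 with the mean over its probe sets. The 4 receptors lay between -0.40 (NOTCH1) and 0.47 (NOTCH3, with both values at or below 4.77). Among proteases, the gamma-secretase subunits NCSTN and APH1A differed by -0.81 and -0.65, which was -0.40 for NCSTN with the mean over probe sets and -0.10 for APH1A with plain _at probe sets. Of 6 target genes 4 were above 0. HEY2 read 5.62 on mock and 7.06 on syk (1.44), HES1 7.34 and 8.13 (0.79, or 0.32 with plain _at probe sets) and HEY1 4.99 and 5.59 (0.60), while NRARP differed by -0.47.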

How the data were processed

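RNA of 2 stable Panc1 populations, 1 array each, was analysed. The deposited values, 1 per probe set, were taken as log2 intensities from their range (2.14 to 14.6). RMA (robust multi-array average) is named in the submitters' processing notes, without version or settings. RMA aligns the arrays by quantiles and compresses differences between dim probe sets. The other steps here used Python 3.11.15 with pandas 2.3.3.

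Of 54675 probe sets, 41097 had 1 gene symbol in the platform annotation, and 1801 with several were left unnamed. A gene took its brightest probe set by the mean of both arrays. Gene order and promoter sequences came from RefSeq GRCh38.p14, and 37 members had a promoter entry. The floor was the highest of 27 bacterial control probe sets (4.77). The stretch was compared with genes up to SLC23A2, from VSX1 to ZNF337, and from REM1 on (the long arm).

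Members, role groups and lists were chosen with earlier results of these data known. The naming rule took members past 2-fold or nearest to it, members with opposite probe sets past 2-fold, the end members with their outer neighbours, unlisted genes of the stretch past 2-fold, and partners of named members. It gave the remaining members by difference and Notch genes as counts. Other genes named, Notch genes among them, were chosen after their values were seen, as were the 0.5 level, the bacterial floor and the running-median level of 0.4. With 1 array per group no test, standard error or interval is given, and the number of arrays limits the precision. The calculation was tested on simulated data. The planted differences there were larger than that of any member, so differences of the members' size were not covered. No array column was left unused.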

Additional observations from a re-analysis of the deposited data

How the results depend on the processing

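The alternatives were median centring, removal of a loess trend on brightness (span 0.2), the mean or median over a gene's probe sets, plain _at probe sets, no filter, a filter at the 75th percentile or on the brighter array, and the floor. A difference was taken to move when it changed by more than 0.35. Over these 9 settings the median of the members past the filter ran from 0.25 to 0.45 and that of all measured members from 0.20 to 0.27, and 73.5% to 83.8% of members were above 0. The partners' median ran from -0.01 (plain _at probe sets, a turned sign) to 0.08. After median centring 3 members passed 2-fold higher, MGME1 being the third. With the mean over probe sets 1 member passed 2-fold higher (JAG1 was then at 0.74), with plain _at probe sets 0 did, since neither JAG1 nor TRMT6 has such a probe set, and without a filter 1 passed 2-fold lower (PLCB4). The median of unlisted genes in the stretch ran from 0.079, without a filter, to 0.46. The median on the centromere side ran from 0.07 to 0.59, that on the telomere side from 0.05 to 0.16. On the long arm it ran from 0 to 0.15. Of all genes, 284 were at least 2-fold higher and 278 lower with the mean over probe sets, and 220 and 266 at the 75th percentile. The share of all genes above 0 was 52.9% among those genes, 53.5% after centring and 47.4% with values set to the floor. Of single gene values under an alternative, 47 moved and 677 did not. The filter settings leave the difference of a single gene unchanged, and median centring shifts each by the same 0.019. Values under those settings could therefore not move, and the 677 is no measure of stability. KIZ went from 0.84 to 0.10 with the median over probe sets (taken on each array) or plain _at probe sets, and NAPB was at -0.17 with the latter. No paired analysis was possible because each group has 1 array.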

Other observations

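Over the 23 chromosomes compared (the autosomes and X), the median difference of genes past the filter ran from -0.14 to 0.19, and chromosome 20 ranked 7 of 23. The genes around TFAP2C on the long arm of chromosome 20, where the running median was as high as in the 20p stretch, were chosen after their values were seen. TFAP2C, a transcription factor of epithelia, read 6.68 on mock and 8.30 on syk (1.63). In the same window, the mitotic kinase AURKA differed by 0.64, the mRNA cleavage factor CSTF1 by 0.98 and RTF2 by 0.55. The nuclear export factor RAE1 differed by 0.88, PMEPA1 by 0.92 and RBM38 by 0.37. Below 0 were FAM210B (-0.48) and BMP7, a secreted growth factor (-0.11).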
